A study of Mus musculus with 3 samples.

Results

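C-type lectin receptors are described here in RAW macrophages given LPS alone or after a lactobacillus strain. The members are *Clec4a2*, *Clec4d*, *Clec4e*, *Clec4n*, *Clec5a*, *Clec7a*, *Clec12a*, *Clec2d*, *Mrc1* and the shared adaptor *Card9*, found by gene name among the gene probes of the arrays. They are 10 of 26840 named genes and hold 15 of 56605 probes, each a single-stranded oligonucleotide of 60 bases that binds a labelled copy of the transcript. RAW cells are a mouse macrophage line. They received LPS, the cell wall glycolipid of Gram-negative bacteria that is sensed by TLR4, at 50 ng/mL (LPS), or *Lacticaseibacillus rhamnosus* CRL1505 and then LPS (CRL1505 + LPS), or *Lactiplantibacillus plantarum* CRL1506 followed by LPS (CRL1506 + LPS). Cells had been kept with each strain for 24 h, at 50000000 lactobacilli per mL. The design text gives 12 h of LPS and the sample descriptions 3 h. LPS is common to all 3 conditions. Non-stimulated cells were not analysed here, and no value below shows the response to LPS itself.

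There was 1 array for each condition, so differences are described without any test. One slide and scan run held LPS and CRL1506 + LPS, and a different slide and run held CRL1505 + LPS, so slide and strain cannot be told apart for CRL1505. Levels are log2 processed intensities relative to the 75th percentile of the gene spots on the same array (743.1 with LPS alone, 517.0 with CRL1505 and 697.9 with CRL1506), and a log2 ratio is a difference of such levels. Of the gene spots, between 48.5% and 55.3% were well above background on an array. The SD of the log2 ratio over the spots of probes printed 10 times had a median of 0.048 for CRL1505 + LPS against LPS and 0.043 for CRL1506 + LPS against LPS. For such probes with an intensity under 300 it was 0.265 over 7 probes and 0.246 over 12 probes, respectively. The SD between different probes of a gene had a median of 0.228 and 0.215, and of 0.323 between the strains, and is used below as the yardstick of spread, although it holds no variation between cultures. All 8 macrophage markers checked were well above background on every array, but not all were steady: with CRL1505, *Adgre1* was 4.83-fold and *Fcgr1* 5.28-fold higher than with LPS alone and *Csf1r* 2.77-fold lower, and with CRL1506 *Adgre1* was just past 2-fold and *Fcgr1* 1.93-fold higher and *Csf1r* 1.83-fold lower. The other 5 stayed under 2-fold with both strains. Other lists were not silent: 2 of 3 T cell markers and 2 or 3 of 3 neutrophil markers passed on each array, as did 1 of 3 B cell, 0 or 1 of 2 NK cell, 1 or 2 of 3 dendritic cell, 0 to 2 of 3 fibroblast and 0 or 1 of 3 epithelial cell markers. The part of these marker signals in the results was not tested.

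C-type lectin receptors recognise sugars and lipids of fungi, bacteria and dead cells. Dectin-1 (*Clec7a*) binds beta-glucans, Dectin-2 (*Clec4n*) binds mannans of fungi, and Mincle (*Clec4e*) with its partner MCL (*Clec4d*) binds mycobacterial glycolipids. The activating receptors signal through an ITAM motif of their own or of the adaptors FcR gamma (*Fcer1g*) and DAP12 (*Tyrobp*) to the kinase *Syk*, and from there through *Card9*, *Bcl10* and *Malt1* to NF-kB. Receptors such as *Clec4a2* and *Clec12a* carry an inhibitory ITIM motif and recruit phosphatases.

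The genes are clustered in the genome. *Clec4n*, *Clec4d* and *Clec4e* are consecutive protein-coding genes on chromosome 6 in RefSeq's order, *Clec4a2* lies close by, and *Clec2d*, *Clec12a* and *Clec7a* form another group on the same chromosome, which holds 8 of the 10 members. *Mrc1* and *Card9* are on chromosome 2. Most probes cover contiguous bases, but 4 of the 15 span more bases of the genome than their 60 and so cross an exon junction. These are shown because the results for *Clec7a*, *Clec5a* and *Card9* turn on whether the probes of a gene differ, and they are placed on mm9, the build of the files, all on the minus strand. The *Clec7a* probe A_66_P135346 covers chr6:129420986-129422630, the *Clec5a* probe A_51_P398376 covers chr6:40532266-40535180, and the *Card9* probes A_66_P128849 and A_66_P135237 cover chr2:26208066-26208504 and chr2:26212384-26212744.
Clec7a A_66_P135346: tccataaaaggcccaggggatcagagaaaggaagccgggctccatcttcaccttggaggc
Clec5a A_51_P398376: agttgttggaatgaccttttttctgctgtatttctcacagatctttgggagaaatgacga
Card9 A_66_P128849: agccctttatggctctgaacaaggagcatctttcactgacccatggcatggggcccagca
Card9 A_66_P135237: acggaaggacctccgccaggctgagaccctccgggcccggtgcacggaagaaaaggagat

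Promoter sequence was matched for 9 of the 10 members (not *Clec4n*) in RefSeq, build GRCm38.p6. The 250 bases before each start were searched on both strands for the C/EBP letters TTGCNCAA, the AP-1 letters TGANTCA, the PU.1 letters GAGGAAGT, the ISRE core (GAAA repeated after any 2 bases) and the NF-kB decamer. Among 32851 windows of this length, 2.61% held the C/EBP letters, 6.75% the AP-1 letters, 2.44% the PU.1 letters, 2.98% the ISRE core and 7.25% the NF-kB decamer. *Clec4e* held the C/EBP letters 66 bases before the start. *Clec12a* held the C/EBP letters 140 bases and the AP-1 letters 213 bases before the start, and *Clec2d* held the ISRE core 189 bases before the start. The windows of *Clec7a*, *Clec5a*, *Clec4d*, *Clec4a2*, *Mrc1* and *Card9* held none of the searched letters, which says only that these letters are not in this window. The promoters of *Clec7a* (chr6:129472786-129473035) and *Clec5a* (chr6:40585806-40586055), the members past 2-fold, and of *Clec4e* (chr6:123289872-123290121) are printed on the minus strand in gene direction, with the C/EBP letters in capitals. For *Clec12a* only the stretch around the C/EBP letters is given (chr6:129350093-129350122, plus strand), because *Clec4e* and *Clec12a* are the pair of members that share these letters. A match describes letters and not a bound site.
Clec7a promoter: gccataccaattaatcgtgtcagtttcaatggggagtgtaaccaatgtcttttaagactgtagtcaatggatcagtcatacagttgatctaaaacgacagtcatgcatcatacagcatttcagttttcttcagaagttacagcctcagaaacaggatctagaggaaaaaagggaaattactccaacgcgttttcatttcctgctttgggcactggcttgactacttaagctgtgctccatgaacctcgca
Clec5a promoter: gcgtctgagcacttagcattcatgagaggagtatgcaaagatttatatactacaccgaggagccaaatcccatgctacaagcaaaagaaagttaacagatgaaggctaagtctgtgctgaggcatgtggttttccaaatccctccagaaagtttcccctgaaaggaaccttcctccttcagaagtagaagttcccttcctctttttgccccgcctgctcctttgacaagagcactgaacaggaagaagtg
Clec4e promoter: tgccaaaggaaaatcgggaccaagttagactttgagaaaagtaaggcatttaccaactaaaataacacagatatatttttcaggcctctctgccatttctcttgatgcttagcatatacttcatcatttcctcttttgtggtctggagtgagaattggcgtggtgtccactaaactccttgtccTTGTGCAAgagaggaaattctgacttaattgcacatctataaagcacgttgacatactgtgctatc
Clec12a C/EBP stretch: gtaggagcaaaTTGCGCAActcgtatgaag

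Of the 10 members, 8 were well above background on all 3 arrays, *Mrc1* on the LPS array alone and *Clec4a2* on none. In CRL1505 + LPS against LPS, 9 could be compared: 2 were at least 2-fold lower (*Clec5a* and *Clec7a*) and 0 at least 2-fold higher, beside 8.41% lower and 9.92% higher among the 15609 genes compared. In CRL1506 + LPS against LPS, 1 of 9 was at least 2-fold lower (*Clec7a*) and 0 higher, beside 3.52% lower and 5.67% higher among 16284 genes. Between the strains, CRL1505 + LPS against CRL1506 + LPS, 0 of 8 passed 2-fold either way, beside 9.01% higher and 7.46% lower among 15785 genes. The counts over so few members are a description and say nothing particular about them. The median log2 ratio of the members was -0.10, -0.41 and -0.16 in the 3 comparisons, and that of all genes 0.01, -0.06 and 0.03. Both strain comparisons use the same LPS array, so a member that is low in both may equally be read as high on that array. Less RNA per cell and fewer cells with the RNA cannot be told apart in such samples.

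**Figure D1:**
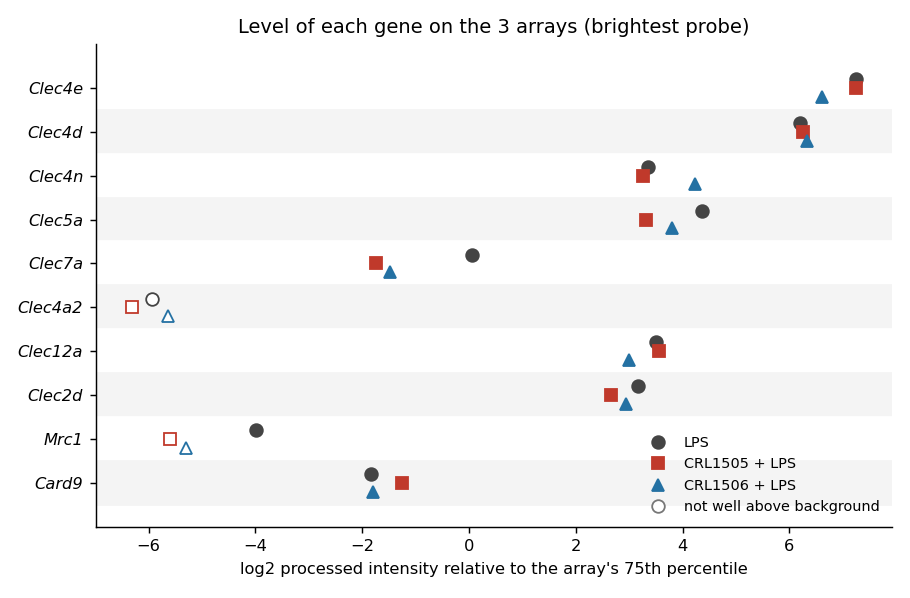
Level of each member on the 3 arrays, as log2 processed intensity of its brightest probe relative to the 75th percentile of the array, with open symbols for probes not well above background. Positions should be read within a gene and not between genes, since probes differ in brightness. *Clec7a* sits at 0.06 with LPS alone, at -1.73 with CRL1505 and at -1.48 with CRL1506.

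*Clec7a* encodes Dectin-1, the receptor for beta-glucans of fungal walls. Its brighter probe, A_51_P246653 at chr6:129411739-129411798 on mm9, had a processed intensity of 773.4 with LPS alone, 155.4 with CRL1505 and 250.9 with CRL1506. It was high on the LPS array and low on both arrays with lactobacilli. The log2 ratio to LPS was -1.79 for CRL1505 (3.46-fold lower) and -1.53 for CRL1506 (2.90-fold lower), both beyond the spread between probes. The arrays with the strains differed by -0.26, which is within that spread.

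The other *Clec7a* probe, the junction probe printed above, matches another transcript (NM_001309637, against NM_020008 for the brighter one). Its intensity was 77.8 with LPS alone, 10.1 with CRL1505, which was not well above background, and 53.1 with CRL1506. It was again highest for LPS, but the difference with CRL1506 was small. It was at least 1.83-fold lower with CRL1505, and its log2 ratio with CRL1506 was -0.46. The probes thus differ in the size of the difference with CRL1506, and with the mean over both probes the ratio for CRL1506 fell just short of 2-fold.

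*Clec5a* encodes MDL-1, which pairs with DAP12 and is found on myeloid cells. All 3 of its probes were well above background on every array and ordered the arrays alike, LPS highest, CRL1506 + LPS between and CRL1505 + LPS lowest. The brightest had intensities of 15345, 9689 and 5128 in that order of arrays. For CRL1505 + LPS against LPS the log2 ratios of the probes were -1.06, -1.21 and -1.31, and for CRL1506 + LPS against LPS they were -0.57, -0.67 and -0.70. Every probe passed 2-fold with CRL1505 and none with CRL1506. The strains differed by -0.48 at the brightest probe, beyond the spread between probes. This difference depended on the scaling: over 7 other normalizations it ranged from -0.88 to 0.01. The highest value came with the median shift, so the order of the 2 strain arrays does not hold there.

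**Figure D2:**
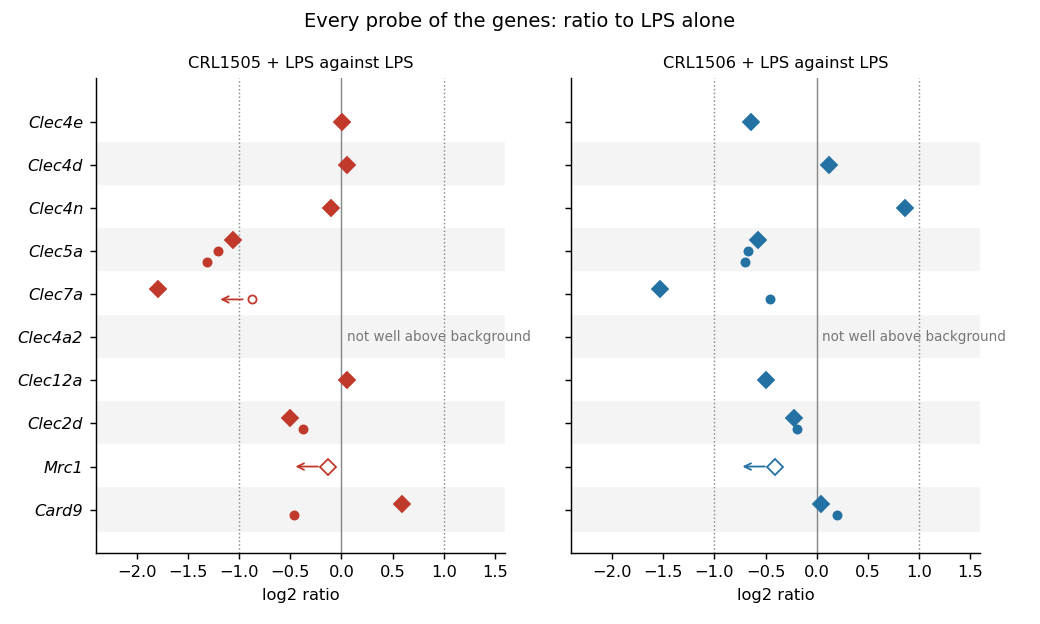
Log2 ratio to LPS of every probe of the members for CRL1505 + LPS (left) and CRL1506 + LPS (right), with large diamonds for the brightest probe of a gene, small circles for its other probes, open symbols with an arrow for bounds, and dotted lines at 2-fold. The 3 *Clec5a* probes lie between -1.31 and -1.06 on the left, whereas the *Card9* probes lie on opposite sides of 0 there, at 0.59 and -0.47.

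*Clec4e*, *Clec4d* and *Clec4n*, neighbours in the genome, did not move together with CRL1506, while with CRL1505 each stayed within the spread between probes. *Clec4e* (Mincle) had intensities of 112997.5 with LPS alone, 78707 with CRL1505 and 68226 with CRL1506. After scaling, its level was 7.25 for both LPS and CRL1505 + LPS and 6.61 for CRL1506 + LPS, which was therefore the low array. Its log2 ratio to LPS was 0.00 with CRL1505 and -0.64 with CRL1506 (1.56-fold lower).

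*Clec4d* (MCL), which forms a complex with Mincle, had levels of 6.20 with LPS alone, 6.25 with CRL1505 and 6.32 with CRL1506. These lie within 0.12 of each other, and none of the 3 differences exceeded the spread between probes. Its log2 ratios were 0.05 and 0.12, so the lower level of its partner with CRL1506 had no counterpart here.

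*Clec4n* (Dectin-2), a receptor for fungal mannans that signals through FcR gamma, had intensities of 7629 with LPS alone, 4940 with CRL1505 and 13062 with CRL1506. CRL1506 + LPS was the high array. The log2 ratio was 0.87 for CRL1506 (1.82-fold higher) and -0.10 for CRL1505, the latter within the spread between probes. Between the strains it was -0.97, just short of 2-fold, and 6 of 7 other normalizations put it past 2-fold (-1.37 to -0.47 over all 7). *Clec4e*, *Clec4d* and *Clec4n* each have a single probe, so no other probe of these genes can be set beside these values.

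Among the receptors with inhibitory motifs, *Clec12a* (MICL), which recognises uric acid crystals, had levels of 3.49 with LPS alone, 3.55 with CRL1505 and 3.00 with CRL1506. Only CRL1506 + LPS was low, with a log2 ratio of -0.50 (1.41-fold lower) against 0.05 for CRL1505. *Clec4e* was likewise low with CRL1506 alone, and for both genes the difference between CRL1505 + LPS and LPS was within the spread between probes. Both have the C/EBP letters in the promoter window searched above. *Cebpb*, a C/EBP factor induced in macrophages, had log2 ratios of 0.56 for CRL1505 and -0.35 for CRL1506. The latter was not particular to *Cebpb*. All 6 transcription factors of the list described further below, *Cebpb* among them, were under 0 with CRL1506, with a median of -0.60. The higher *Cebpb* level with CRL1505 had no counterpart in *Clec4e* or *Clec12a*. A link between the letters, *Cebpb* and these genes was not tested. *Clec4a2* (DCIR) had intensities of 12.2, 6.5 and 14.0 for LPS, CRL1505 + LPS and CRL1506 + LPS, all of them near background, and no ratio can be given.

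*Clec2d* (Clr-b), a ligand of the inhibitory NK cell receptor NKR-P1B, had intensities of 6679 with LPS alone, 3270 with CRL1505 and 5383 with CRL1506. LPS was highest, with log2 ratios of -0.51 for CRL1505 and -0.22 for CRL1506. A second probe that overlaps the first gave -0.38 and -0.20. Between the strains the log2 ratio at the brighter probe was -0.29, within the spread between probes. Over 7 other normalizations it ranged from -0.68 to 0.21, so the strain arrays have no settled order. Since the probes share bases they are not separate evidence.

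*Mrc1*, the mannose receptor of alternatively activated macrophages, was dim. Its intensity was 46.8 for LPS, where it was well above background, and 10.7 and 17.8 for CRL1505 + LPS and CRL1506 + LPS, where it was not. *Mrc1* was thus detected on the LPS array alone, and against the lowest level well above background on the other arrays it was at least 1.10-fold lower with CRL1505 and at least 1.33-fold lower with CRL1506. These bounds are small because the LPS signal itself was close to the detection limit.

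*Card9* relays the signal of Dectin-1, Dectin-2 and Mincle to *Bcl10* and *Malt1*. The brighter probe, A_66_P128849, had intensities of 208.0 with LPS alone, 217.5 with CRL1505 and 201.7 with CRL1506, and log2 ratios of 0.59 for CRL1505 and 0.05 for CRL1506. The other probe, A_66_P135237, had intensities of 106.7, 53.7 and 114.8, and log2 ratios of -0.47 and 0.20. The probes disagree in sign for CRL1505, so these data give no direction for *Card9* with that strain. On the CRL1505 + LPS array, 8 of the 20 spots nearest to the brighter probe were uneven (mean pixel signal over the median by more than 0.2 on the log2 scale), although its own spot was not. No spot of any member was uneven or marked as an outlier by the scanner software.

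**Figure D3:**
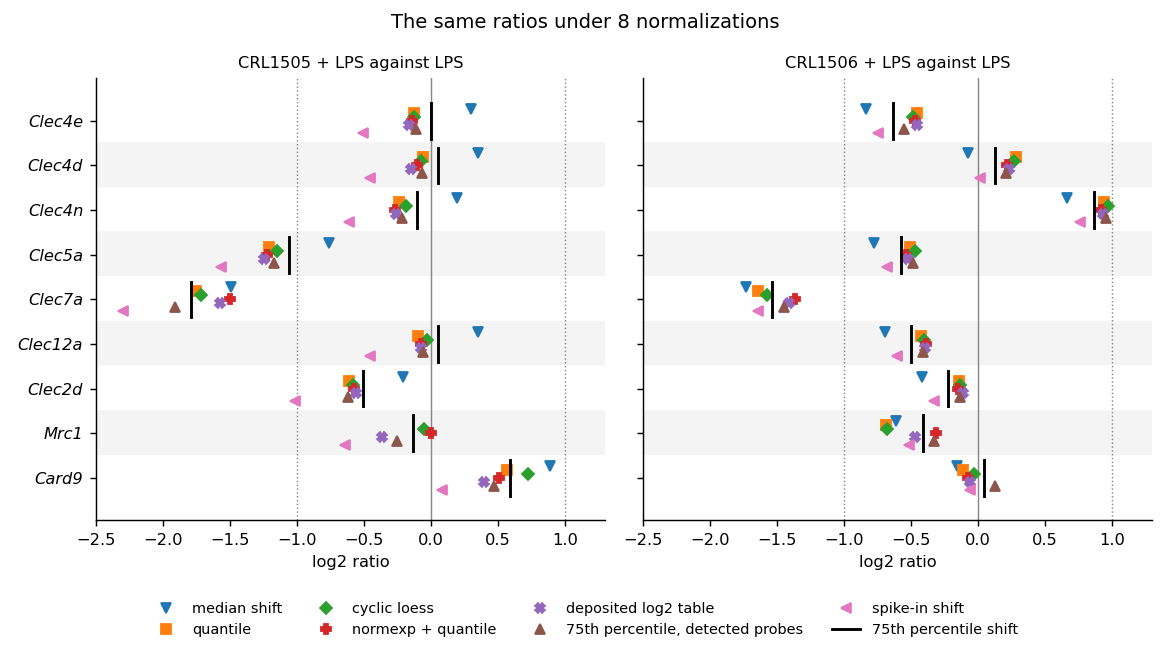
Log2 ratio to LPS of each member under the 75th percentile shift (black lines) and 7 other normalizations (symbols), for CRL1505 + LPS (left) and CRL1506 + LPS (right), with dotted lines at 2-fold and with bounds for *Mrc1*. *Clec7a* lies past 2-fold under all of them in both panels, between -2.30 and -1.50 on the left, while *Clec4e*, *Clec4d* and *Clec12a* with CRL1505 fall on either side of 0.

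The scaling of the arrays decides the sign of small differences with CRL1505. A shift by the array median moved the median of all genes to 0.33 and a shift by spike-in probes moved it to -0.48, against 0.01 under the 75th percentile. The share of higher genes among those called past 2-fold was 54.1% under the 75th percentile, 76.1% with the median shift and 20.1% with the spike-in shift. *Clec4e*, *Clec4d*, *Clec4n* and *Clec12a* with CRL1505 changed sign between these shifts, and relative to the median of all genes they lay between -0.25 and 0.04. *Clec5a* with CRL1505 ranged from -1.56 to -0.76, which is under 2-fold with the median shift alone, and relative to the median of all genes it ranged from -1.20 to -1.08. *Clec7a* ranged from -2.30 to -1.50 with CRL1505 and from -1.73 to -1.37 with CRL1506. *Clec4n* with CRL1506 ranged from 0.67 to 0.97 and *Clec4e* with CRL1506 from -0.84 to -0.45, with the sign kept under all 7.

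Behind the receptors, all 24 genes of a list of signaling genes could be compared. With CRL1505, 2 were at least 2-fold higher (*Syk* and *Malt1*) and 3 at least 2-fold lower (*Fgr*, *Inpp5d* and *Trim62*), and the median log2 ratio was -0.17. With CRL1506, 0 were higher and 1 was lower (*Fgr*), with a median of -0.15. The shares of all genes past 2-fold are those given above for the members.

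The kinase *Syk* had intensities of 3995 with LPS alone, 6668 with CRL1505 and 6834 with CRL1506, and was lowest for LPS. The log2 ratio was 1.26 with CRL1505 and 0.86 with CRL1506, and 3 measured probes gave 0.54 to 1.86 and 0.86 to 2.58. All of them were higher than with LPS alone. *Malt1*, the paracaspase that works with *Card9* and *Bcl10*, had log2 ratios of 1.19 with CRL1505 and -0.16 with CRL1506 at its brightest probe. Its 4 probes gave 0.87 to 1.96 with CRL1505 but -0.16 to 2.56 with CRL1506, so the second strain has no settled value. *Bcl10* had log2 ratios of -0.14 with CRL1505 and -0.51 with CRL1506 at its brighter probe. Its other probe gave 0.10 and 1.21, the latter past 2-fold in the opposite direction, so *Bcl10* has no settled direction with either strain.

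Of the lower genes, the Src-family kinase *Fgr* had intensities of 169.0 with LPS alone, 28.0 with CRL1505, which was not well above background, and 53.2 with CRL1506. It was at least 3.97-fold lower with CRL1505 and 2.98-fold lower with CRL1506. *Inpp5d* (SHIP1), the phosphatase that limits PI3K signaling, had intensities of 7053, 1870 and 5497 for LPS, CRL1505 + LPS and CRL1506 + LPS. Only CRL1505 + LPS was low, with a log2 ratio of -1.39 against -0.27 for CRL1506. *Trim62*, the ubiquitin ligase that modifies CARD9, was dim (117.9, 34.5 and 77.4) with a log2 ratio of -1.25 with CRL1505 at the only probe measured there. With CRL1506 its probes gave -0.52 and 0.41, which disagree in sign. The adaptors stayed under 2-fold. *Fcer1g* had log2 ratios of 0.57 with CRL1505 and 0.02 with CRL1506, and *Tyrobp*, the partner of *Clec5a*, -0.34 and -0.45.

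**Figure D4:**
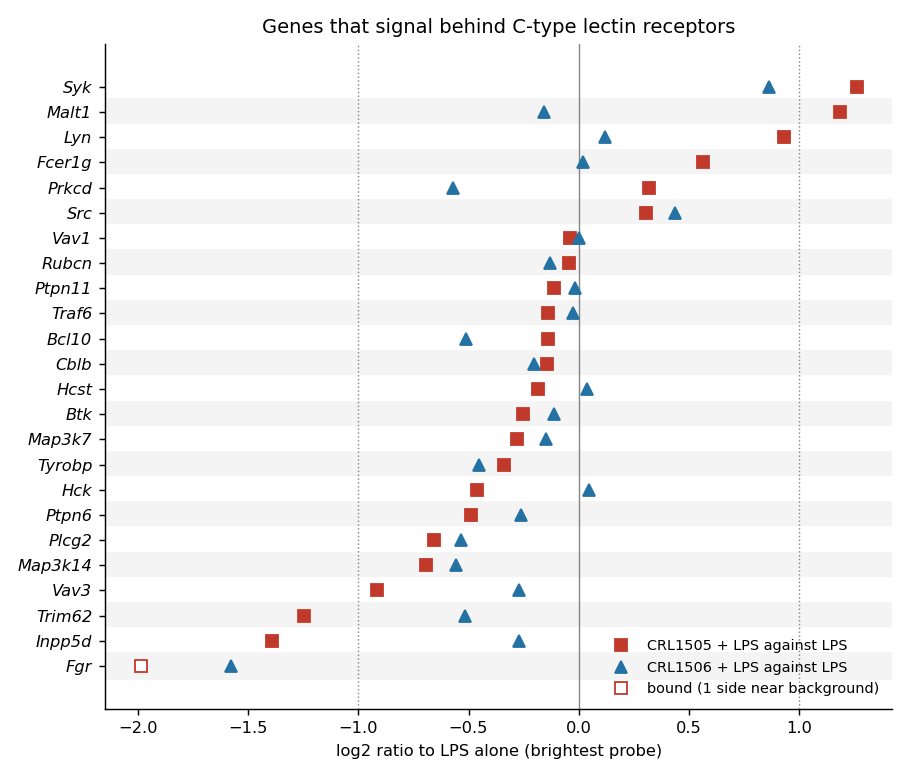
Log2 ratio to LPS of the 24 signaling genes (brightest probe) for CRL1505 + LPS (squares) and CRL1506 + LPS (triangles), ordered by the former, with an open symbol for a bound and dotted lines at 2-fold. *Syk* at 1.26 and *Malt1* at 1.19 lie past the line on the right with CRL1505, and *Fgr* lies past the line on the left with both strains.

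A list of 42 other genes of C-type lectins and related receptors was mostly dim, and 24 could be compared with CRL1505 and 23 with CRL1506. With CRL1505, 6 were at least 2-fold higher (*Olr1*, *Klrb1b*, *Clec2h*, *Klrk1*, *Clec4a4* and *Clec11a*) and 1 lower (*Clec4g*), with a median log2 ratio of -0.18. Among all genes compared, 9.92% were higher and 8.41% lower. With CRL1506, 2 were higher (*Cd209a* and *Klrk1*) and 0 lower, with a median of 0.01, beside 5.67% higher and 3.52% lower among all genes. Of the compared values, 7 of 24 with CRL1505 and 3 of 23 with CRL1506 are bounds from faint spots, so the counts are a description only. *Klrb1b*, which encodes NKR-P1B, the receptor of *Clec2d*, had intensities of 12.2 with LPS alone, 159.1 with CRL1505 and 7.1 with CRL1506. It was well above background with CRL1505 alone, at least 6.86-fold higher than with LPS. Its spot on that array was uneven, as was that of *Olr1* (LOX-1, a receptor for oxidised lipoprotein), which was at least 6.89-fold higher. *Clec2h* was at least 6.61-fold higher on an even spot. *Klrk1* (NKG2D) had intensities of 41.1, 158.2 and 88.1 for LPS, CRL1505 + LPS and CRL1506 + LPS, with log2 ratios of 2.47 and 1.19, but its second probe gave 0.00 with CRL1506. *Clec4a4* was at least 2.23-fold higher with CRL1505, *Clec11a* had a log2 ratio of 1.02, and *Clec4g* was at least 3.25-fold lower. *Cd209a*, a relative of DC-SIGN, was at least 3.20-fold higher with CRL1506 and was not well above background on the other arrays. *Klrb1b*, *Olr1*, *Clec4g* and *Cd209a* have 2 probes each, and their bounds rest on the probe that represents the gene. Neither probe gave a ratio measured on both sides in these comparisons, and the second probe is not described here. On the CRL1506 + LPS array, 6 of the 20 spots nearest to the *Cd209a* probe and 6 of the 20 nearest to the brighter *Klrk1* probe were uneven, as were 5 of 20 around the *Cd209a* probe on the LPS array.

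Among 3 endogenous ligands, *Lgals9* (galectin-9, which binds Dectin-1) had intensities of 2663 with LPS alone, 5746 with CRL1505 and 3316 with CRL1506. It was high with CRL1505, with a log2 ratio of 1.63 against 0.41 for CRL1506. *Sap130*, a nuclear protein that dying cells release and Mincle binds, had log2 ratios of -0.06 with CRL1505 and 0.07 with CRL1506 at its brighter probe. Its other probe gave 0.22 and 1.32, so with CRL1506 the probes differ by more than 2-fold. Of 6 transcription factors linked to the expression of these receptors, 1 passed 2-fold with CRL1505, beside the shares of all genes given above. This was *Pparg*, a factor of alternative activation, at least 3.23-fold lower with CRL1505. Its intensities were 138.7, 29.9 and 81.6 for LPS, CRL1505 + LPS and CRL1506 + LPS, the second not well above background. With CRL1506 its log2 ratio was -0.68.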

How the data were processed

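RNA was hybridised in 1 colour to SurePrint G3 Mouse GE microarrays with 62976 spots. The authors deposited for each array the processed intensity of every spot, which is the mean pixel signal minus a fitted background, corrected for spatial trend and not normalized between arrays. The file headers name Feature Extraction 12.0.3.1 and mm9. A further deposited table holds log2 values that the authors normalized between arrays, by a setting not given in the sources used here.

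From each log2 processed intensity, the 75th percentile over gene spots on the same array was subtracted. Between 241 and 467 outlier spots per array were dropped, repeated spots were averaged, and a gene was represented by its brightest probe over the arrays. No ratio was formed for a probe that was dim on both sides. Where 1 side was dim, the bright side was set against the higher of the dim value and the lowest level well above background on that array, which gives "at least N-fold". Genes were counted at 2-fold, without tests, as there was 1 array per condition. The number of arrays limited the precision.

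The members, the lists and the alternatives were chosen with earlier results of these data known. All members were named, with the genes of the lists past 2-fold against LPS and, otherwise, *Fcer1g*, *Tyrobp*, *Syk*, *Bcl10*, *Malt1*, *Sap130* and *Cebpb*. Ratios between the strains are not given for the genes of the lists, although some of them passed 2-fold there. Alternatives were other normalizations (median, quantile, cyclic loess, normexp with an offset of 50, the deposited log2 table, the percentile over detected probes, spike-in probes), filters on dim, outlier and uneven spots, the mean over probes, and thresholds of 1.5-fold and 4-fold. Uneven spots were left out together with spots that had 5 or more uneven ones among the nearest 20. The procedure was tested on simulated data. Python 3.11.15, pandas 2.3.3, NumPy 2.4.6, SciPy 1.17.1, R 4.3.3 and limma 3.58.1 were used.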

Additional observations from a re-analysis of the deposited data

Results flagged for a closer look

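In 3 members the ratios of the strains to LPS had opposite signs. *Clec4e* stood at 0.00 with CRL1505 and -0.64 with CRL1506, a difference of 0.64 on the log2 scale. *Clec4n* stood at -0.10 and 0.87, a difference of -0.97. *Clec12a* stood at 0.05 and -0.50, a difference of 0.55. None of these differences was tested, since each condition had 1 array, and all 3 values with CRL1505 lay within the spread between probes and changed sign with the scaling. Over 7 other normalizations the strain difference ranged from 0.24 to 1.14 for *Clec4e*, -1.37 to -0.47 for *Clec4n* and 0.15 to 1.05 for *Clec12a*. The low ends for *Clec4e* and *Clec12a* lie within the spread between probes of 0.323.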

How the results depend on the processing

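Over 12 alternatives of processing, the member values past 2-fold (*Clec5a* with CRL1505 and *Clec7a* with each strain) kept their sign. Sign changes of values under 2-fold were not counted as reversals. Of the member values, 263 moved by less than the spread between probes and 45 by more, mostly with the median or spike-in shift. With CRL1505, 2 members were lower, but 1 with the median shift, 0 at 4-fold, and 3 with the spike-in shift (*Clec2d* at -1.01) or without a filter on dim probes, and 1 was higher at 1.5-fold. With CRL1506, 1 member was lower, but 2 without a filter on dim probes or at 1.5-fold, and 0 with the mean over probes or at 4-fold. At 1.5-fold 1 was higher. Between the strains no member passed, but 3 were higher with the median shift, 1 was higher at 1.5-fold, and 1 was lower with quantile, cyclic loess or normexp normalization, the deposited table, the percentile over detected probes, the spike-in shift or 1.5-fold. The median of the members was 0.24 with the median shift and -0.61 with the spike-in shift for CRL1505, and 0.33 and -0.56 between the strains. Of the signaling genes with CRL1505, the 2 higher became 0 with the spike-in shift or at 4-fold, and the 3 lower became 1 with normexp, 6 with the spike-in shift or at 1.5-fold and 0 at 4-fold. With CRL1506, 2 were higher with the mean over probes and 1 at 1.5-fold, and the 1 lower became 0 with normexp, the deposited table, probes well above background on all arrays, or 4-fold. Without uneven spots, *Card9* with CRL1505 was represented by its other probe, at -0.47. The causes of the other shifts were not tested. No paired analysis was possible because each condition had 1 array. Signal near background limits *Mrc1*, *Clec4a2*, *Card9* and the second *Clec7a* probe.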
